A study of Homo sapiens with 24 samples.

Results

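The let-7 microRNA family was followed in HEK293, a long-established line from human embryonic kidney, whose cells overexpressed either the fluorescent protein eGFP as control (GFP from here on) or a nuclear lamin: LMNA (lamin A/C), LMNB1 (lamin B1) or LMNB2 (lamin B2). The members were the 10 genes MIRLET7A1, MIRLET7A2, MIRLET7A3, MIRLET7B, MIRLET7C, MIRLET7D, MIRLET7E, MIRLET7F1, MIRLET7G and MIRLET7I. They were found by name among the intervals that the deposited small RNA table classes as miRNA or precursor RNA, with no use of their values, which gave 15 intervals of the 5148 in those classes and of 175946 in the whole table. All cells carry the genotype label wild type, so by their labels the groups differ only in what was overexpressed, and each of the 4 groups has 3 small RNA libraries and 3 ATAC-seq libraries. Small RNA sequencing counts reads from short RNAs, and ATAC-seq counts cuts by a transposase that inserts where chromatin is open. The title of the study names RNA polymerase III and genome organisation. How the lamins were delivered, for how long, and whether replicates are separate cultures is not given in the sources used here, so p-values measure the spread between these libraries, which may be technical.

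A microRNA is cut from a hairpin in 2 steps, first in the nucleus by the enzyme Drosha and then in the cytoplasm by Dicer, and the product pairs through its seed with messenger RNAs that it represses. The let-7 family is known for holding back growth and developmental genes such as RAS family members, MYC, HMGA2 and LIN28, and the LIN28 proteins in turn block the maturation of most let-7 hairpins. Its members come from several chromosomes, some of them (let-7a-2, let-7c and let-7e) beside microRNAs of the miR-99, miR-100 and miR-125 group.

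The sequences of the main product, cut from the 5′ side of each hairpin (the 5p arm), are shown because they decide which members short reads can tell apart. They come from RefSeq (GRCh38.p14), where 10 of 10 members matched, and run 5′ to 3′ with the seed, bases 2 to 8, in capitals.
hsa-let-7a-5p: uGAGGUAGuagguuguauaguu
hsa-let-7b-5p: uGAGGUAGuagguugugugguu
hsa-let-7c-5p: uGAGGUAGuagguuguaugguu
hsa-let-7d-5p: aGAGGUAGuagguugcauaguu
hsa-let-7e-5p: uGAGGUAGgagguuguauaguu
hsa-let-7f-5p: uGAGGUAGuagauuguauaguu
hsa-let-7g-5p: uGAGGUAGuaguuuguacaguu
hsa-let-7i-5p: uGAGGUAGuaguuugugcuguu
The 10 genes give 8 distinct sequences with 1 shared seed, which 11 of 2351 distinct mature sequences in RefSeq carry. Counted from 1 at the 5′ end and with the let-7a base first, let-7c differs from let-7a by A19G alone, let-7e by U9G and let-7f by G12A. The differences are A17G and A19G in let-7b, U1A and U16C in let-7d, and G12U and U18C in let-7g. Furthest from let-7a is let-7i, with G12U, A17G, U18C and A19U. MIRLET7A1, MIRLET7A2 and MIRLET7A3 give an identical let-7a-5p, so counts at these 3 copies are uncertain where reads map to several places, and how such reads were counted is not given in the sources used here.

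The intervals do not cover the same piece of every hairpin, and 8 more intervals on these hairpins stand under other spellings of the names. Those 8 served to compare arms and entered alternatives of the let-7 share and arm ratio that were added after seeing the data. Of the 15, 7 cover a precursor, 5 cover a mature site, and 3 (let-7a-2, let-7a-3 and let-7c) stand in the table under both classes and cover a mature site with 25 bp on each side. The let-7a-2 interval lies on the 5p site, while those of let-7a-3, let-7c and one of the pair for let-7e lie on the 3p site. For let-7c and let-7e, the members whose counts matter most below, the RefSeq hairpin is shown with the bases inside the 3p-site interval in capitals.
microRNA let-7c: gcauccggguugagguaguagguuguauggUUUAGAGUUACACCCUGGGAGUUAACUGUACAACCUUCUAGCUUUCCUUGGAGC
microRNA let-7e: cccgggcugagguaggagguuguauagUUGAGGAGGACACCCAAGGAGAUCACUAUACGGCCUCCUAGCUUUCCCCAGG
In both, the interval takes in the last 2 bases of the 5p product, and the let-7a-3 interval takes in 0. Their mean counts per library were 1151 for let-7c and 612 for the let-7e 3p site, against 38.2 for let-7a-3. A count at the let-7c or let-7e 3p site therefore cannot be assigned to 1 arm, and "3p site" is used below only as the name of the interval.

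Small RNA totals ran from 132507051 to 195074742 counts per library and ATAC totals from 156043245 to 290158229. MicroRNA intervals took 0.0785% of the counts in GFP replicate 1, 0.133% in GFP replicate 2 and 0.320% in GFP replicate 3, and between 0.117% and 0.159% in the 9 lamin libraries, so the 3 GFP libraries stand apart from each other in microRNA content. Values below are CPM, counts scaled to a common library size, after adjustment by TMM, a method that centres the bulk of all features, and the scaling factors were lowest in GFP replicate 1 (0.631) and highest in GFP replicate 3 (1.31). The tables hold no protein-coding genes, but intervals over the LMNB1 gene summed to 153.6 to 173.4 CPM in the LMNB1 libraries and at most 2.38 elsewhere. Intervals over LMNB2 summed to 1126 to 1263 CPM in the LMNB2 libraries and at most 4.99 elsewhere, while those over LMNA (0.051 to 0.242 CPM) hold too few counts to check the LMNA label. All 9 listed microRNAs of the HEK293 background, such as the miR-17-92 cluster, were found, with a sum of 80.6 to 347 CPM, and markers of liver, blood, muscle, nerve, pluripotent and mesenchymal cells summed to at most 0.0588 CPM per cell type.

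All 10 members were detected in all 12 small RNA libraries, with levels that spanned a wide range between members. On CPM per kb of interval, which divides by interval length, let-7c was highest, with a median of 97.4 over the libraries (range 44.3 to 241). It was followed by let-7a-2 at 60.5 (36.7 to 224), let-7a-1 at 38.1 (20.9 to 132), let-7e at 32.5 (15.6 to 54.6) and let-7b at 18.9 (8.07 to 30.1). Then came let-7i at 9.06 (6.10 to 36.2), let-7f-1 at 8.51 (4.45 to 37.0), let-7g at 4.13 (1.80 to 22.6), let-7a-3 at 3.14 (2.16 to 6.03) and let-7d at 2.01 (1.42 to 6.51). The order is one of intervals: precursor intervals are longer than mature-site intervals, although nearly all of their reads also count at a mature-site interval. Dividing by length therefore lowers the members listed by a precursor interval. Let-7a-1, below let-7a-2 in this order, had the higher count in each library. The let-7a-3 interval leaves out its 5p site. Every pair of neighbours in this order overlapped in range over the libraries. In counts, let-7c nonetheless ranked highest of the 10 in each of the 12 libraries and took 22.6% to 29.2% of their sum. The let-7a-1 precursor interval held 1.03 to 1.26 times the count of the let-7a-2 interval in the same library. The genes share an identical 5p product, so these are not independent measurements.

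The most abundant members showed how far the GFP libraries lay from each other. The let-7c interval (chr21:16539858-16539929, plus strand, GRCh38) had 3.61, 6.45 and 17.4 CPM in GFP replicates 1, 2 and 3. Its values were 7.94, 9.40 and 6.64 CPM in the LMNA libraries, 7.72, 7.59 and 7.38 in the LMNB1 libraries, and 4.51, 4.27 and 3.19 in the LMNB2 libraries. The LMNB2 libraries lay below all LMNA and LMNB1 libraries and overlapped GFP, with LMNB2 replicate 3 below the lowest GFP library.

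The let-7a-1 precursor interval (chr9:94175932-94176061, plus strand) had 2.89, 5.73 and 17.2 CPM with GFP, 4.62, 7.77 and 4.22 with LMNA, 6.12, 5.49 and 5.30 with LMNB1, and 3.30, 3.17 and 2.71 with LMNB2. At let-7a-2 (chr11:122146543-122146614, minus strand) the values were 2.79, 4.65 and 16.1 CPM with GFP, 4.06, 6.17 and 4.04 with LMNA, 5.61, 5.17 and 4.79 with LMNB1, and 2.79, 2.90 and 2.64 with LMNB2. GFP replicate 3 was the highest library for both. LMNB2 was again lower than each LMNA and LMNB1 library and not lower than each GFP library. The let-7a-3 interval (chr22:46112775-46112845, plus strand), with 21 to 76 counts per library, had 0.180, 0.184 and 0.428 CPM with GFP, 0.212, 0.235 and 0.170 with LMNA, 0.308, 0.263 and 0.313 with LMNB1, and 0.187, 0.154 and 0.263 with LMNB2. Here all 4 groups came close to each other, and LMNB2 overlapped GFP and LMNA.

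The let-7b precursor (chr22:46113661-46113793, plus strand), which lies beside let-7a-3, had 1.07, 2.38 and 4.01 CPM with GFP, 2.69, 3.22 and 2.72 with LMNA, 2.75, 2.51 and 2.51 with LMNB1, and 1.82, 1.47 and 1.17 with LMNB2. The let-7f-1 precursor (chr9:94176322-94176458, plus strand), a short distance from let-7a-1, had 0.610, 1.39 and 5.07 CPM with GFP, 1.18, 1.61 and 1.19 with LMNA, 1.61, 1.05 and 1.15 with LMNB1, and 0.718, 0.825 and 0.739 with LMNB2. In both, GFP replicates 1 and 3 lay on either side of all 9 lamin libraries, and LMNB2 was below every LMNA and LMNB1 library.

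At let-7d, the last of that chromosome 9 cluster, the 5p interval (chr9:94178816-94178886, plus strand) had 0.189, 0.206 and 0.822 CPM with GFP, 0.261, 0.318 and 0.322 with LMNA, 0.254, 0.171 and 0.197 with LMNB1, and 0.229, 0.173 and 0.156 with LMNB2. Its 22 to 146 counts per library left LMNB1 and LMNB2 overlapping. The let-7g 5p interval (chr3:52268311-52268382, minus strand) had 0.378, 0.514 and 3.03 CPM with GFP, 0.716, 0.897 and 0.597 with LMNA, 0.725, 0.551 and 0.557 with LMNB1, and 0.440, 0.384 and 0.242 with LMNB2. The let-7i 5p interval (chr12:62603666-62603737, plus strand) had 0.936, 1.72 and 4.82 CPM with GFP, 1.09, 2.04 and 1.12 with LMNA, 1.70, 1.33 and 1.26 with LMNB1, and 0.832, 0.953 and 0.782 with LMNB2. For let-7g and let-7i the LMNB2 libraries were below every LMNA and LMNB1 library and overlapped GFP.

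Let-7e was the exception among these patterns. Its precursor interval (chr19:51692762-51692888, plus strand) had 3.04, 5.03 and 6.93 CPM with GFP, 4.35, 6.05 and 4.07 with LMNA, 4.12, 4.28 and 4.15 with LMNB1, and 2.23, 1.98 and 2.12 with LMNB2. The 3p-site interval (chr19:51692813-51692884) had 3.04, 5.03 and 6.00 CPM with GFP, 4.26, 6.05 and 3.60 with LMNA, 4.12, 4.28 and 4.15 with LMNB1, and 2.21, 1.98 and 2.12 with LMNB2. All 3 LMNB2 libraries lay below all 9 other libraries at both intervals, and the GFP libraries varied less than for any other precursor interval, GFP replicate 3 standing at 2.28 times GFP replicate 1.

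**Figure D1:**
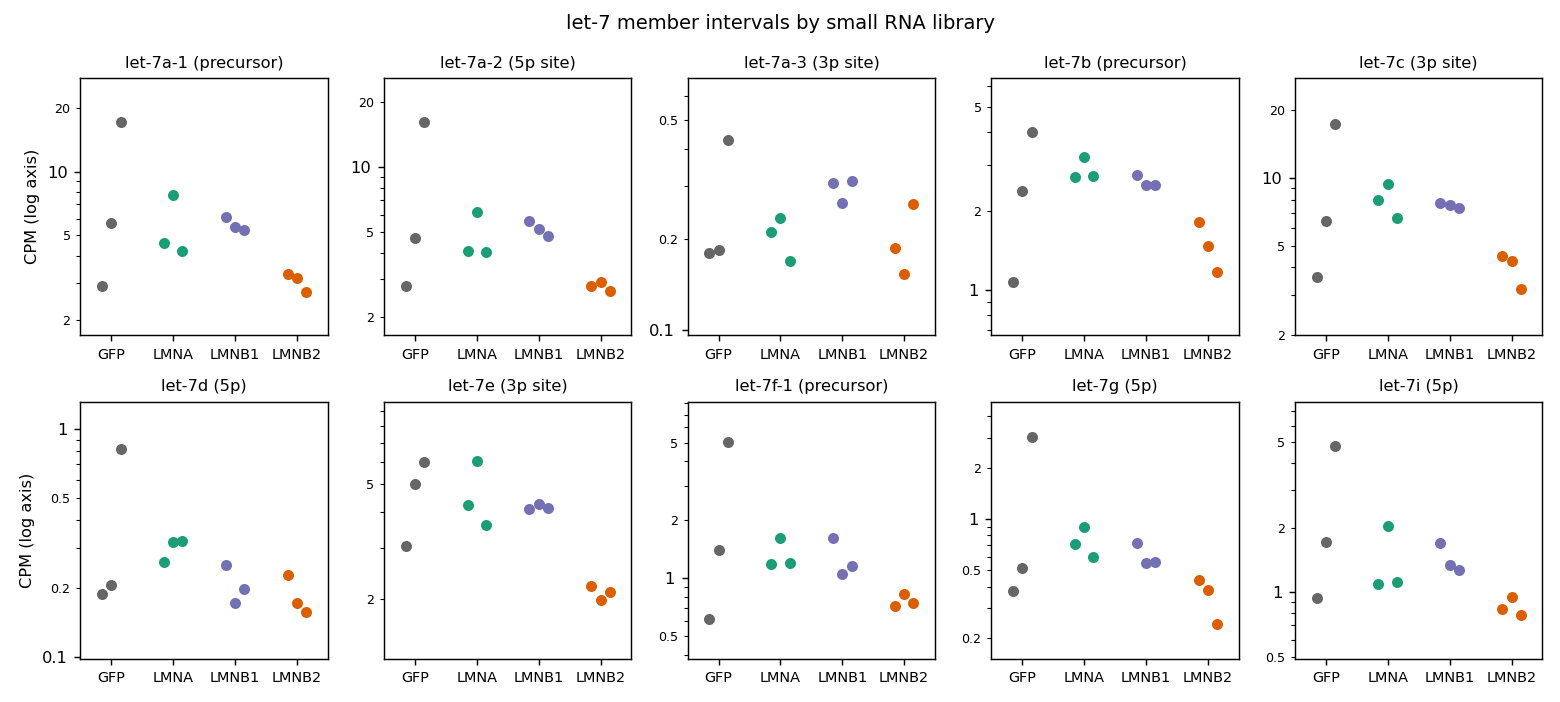
CPM (log axis, a scale of its own in each panel) of 1 interval for each of the 10 let-7 members in the 12 small RNA libraries, grouped by overexpressed protein, each point a library in replicate order. GFP replicate 3 (rightmost grey point) is the highest library in all panels but let-7e, and in the let-7e panel the LMNB2 libraries (1.98 to 2.21 CPM) lie below all others.

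Over the 15 intervals, GFP replicate 3 was the highest library at 13, where 13.0% of all 33893 features tested and 67.8% of the 481 microRNA features tested have their highest value in that library. The ratio of GFP replicate 3 to GFP replicate 1 ran from 1.39 to 8.31 in CPM. The LMNB2 libraries lay below all LMNA and LMNB1 libraries at 11 of 15 intervals, as they did at 7.71% of all features and 44.3% of microRNA features, and below all GFP libraries at 2 of 15 (10.2% and 18.7%). The first of these orders is thus common among microRNAs as a class. The second, found only at the 2 overlapping let-7e intervals, was no more frequent among the members than among microRNA features. How many features had LMNB2 below all 9 other libraries was not counted. All 15 intervals passed the filter on low counts.

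Let-7e was the only member that differed between LMNB2 and GFP by edgeR's quasi-likelihood test after Benjamini-Hochberg correction across the 33893 features tested. The precursor interval fell from 5.00 ± 1.95 CPM in GFP to 2.11 ± 0.122 in LMNB2 (SD, n = 3 each), a log2 fold change of -1.24 (SE 0.25, adjusted p = 0.0217). The 3p-site interval fell from 4.69 ± 1.51 to 2.10 ± 0.116 CPM, a log2 fold change of -1.15 (SE 0.24, adjusted p = 0.0233). These overlapping intervals share most of their reads and count as 1 observation. They are 2 of 15 member intervals, and across all features 2.66% were called in this comparison, 0.752% as lower, and 6.86% of microRNA features were called. In such bulk samples, fewer cells with the RNA and less RNA per cell cannot be told apart.

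The other members were lower in LMNB2 than in GFP on the mean without passing the adjusted test. At an unadjusted p under 0.05, 12 of 15 intervals differed, against 19.9% of all features and 51.1% of microRNA features. The log2 fold changes ran from -1.85 to -0.23 with all 15 below 0 and a median of -1.24, where the median was -0.83 over microRNA features and -0.04 over all features. Without GFP replicate 3 the median of the 15 was -0.29 with 14 below 0, and without GFP replicate 1 it was -1.59. The largest belonged to let-7g 5p (-1.85, SE 0.73, adjusted p = 0.205) and the let-7f-1 precursor (-1.62, SE 0.64, adjusted p = 0.203). Let-7i 5p had -1.53 (SE 0.53, adjusted p = 0.154), let-7a-2 had -1.50 (SE 0.53, adjusted p = 0.159) and the let-7a-1 precursor had -1.49 (SE 0.54, adjusted p = 0.166). Smaller values came from let-7c at -1.19 (SE 0.44, adjusted p = 0.164), let-7d 5p at -1.12 (SE 0.52, adjusted p = 0.248), the let-7b precursor at -0.74 (SE 0.35, adjusted p = 0.254) and let-7a-3 at -0.42 (SE 0.30, adjusted p = 0.435). The members with the largest fold changes also had the largest standard errors, and let-7e had the smallest.

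The position of let-7e depended on the libraries and on what the counts were scaled to. Without GFP replicate 1 its precursor interval had a log2 fold change of -1.51 (adjusted p = 0.0029), and without GFP replicate 3 it had -0.88 (adjusted p = 0.0112). Leaving out any LMNB2 library raised the adjusted p to between 0.0833 and 0.120, with log2 fold changes of -1.25 to -1.20. Scaling to microRNA features alone, which moves the median of all features to 0.51, gave -0.54 (adjusted p = 0.391), which is the difference of let-7e relative to other microRNAs. The summed HEK293 background microRNAs, at 80.6 to 89.7 CPM in LMNB2, were also below LMNA (118 to 182.6) and LMNB1 (127.0 to 144), with GFP at 85.9 to 347. Among them, MIR19A had a log2 fold change of -1.67 in LMNB2 against GFP (adjusted p = 0.0410 by edgeR's quasi-likelihood test). MIR20A had -0.98 (adjusted p = 0.04998 by the same test), and the others were not called. The part of these microRNAs in the result was not tested. Without GFP replicate 1, 9 of 15 intervals were called, all lower (3.71% of all features called, 2.14% lower), and without GFP replicate 3, 2 of 15 (5.82%, 1.85% lower). The DESeq2 test on all 12 libraries called 9 of 15, where it called 3.53% of all features, 1.67% as lower.

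No member interval passed the test for LMNA or LMNB1 against GFP. For LMNA, 0 of 15 were called by edgeR's quasi-likelihood test (background 0.0%), with a lowest adjusted p of 0.908, log2 fold changes of -0.84 to 0.20 and a median of -0.47; 0 of 15 had an unadjusted p under 0.05, where 5.46% of all features did. For LMNB1, 0 of 15 were called (0.0384%), with a lowest adjusted p of 0.861, log2 fold changes of -1.10 to 0.39 and a median of -0.61. Here too 0 of 15 had an unadjusted p under 0.05 (5.51% of all features). DESeq2 also called 0 of 15 for LMNA (0.207% of features) and for LMNB1 (0.0621%). These directions hung on 1 library: without GFP replicate 3 the medians became 0.43 for LMNA and 0.44 for LMNB1, with all 15 intervals higher in both, and without GFP replicate 1 they became -0.80 and -1.03. The direction of let-7 in LMNA and LMNB1 against GFP was therefore set by which GFP libraries were counted.

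Comparisons between lamins do not use the GFP libraries as a reference, and there let-7e was again the member called. Against LMNA (4.82 ± 1.07 CPM), the let-7e precursor interval was lower in LMNB2 by a log2 fold change of -1.19 (SE 0.25, adjusted p = 0.0221), and the 3p-site interval by -1.14 (SE 0.24, adjusted p = 0.0235). Against LMNB1 (4.18 ± 0.088 CPM), the precursor interval had -0.98 (SE 0.25, adjusted p = 0.0485) and the 3p-site interval -0.99 (SE 0.24, adjusted p = 0.0408), all by edgeR's quasi-likelihood test. Against LMNB1 both calls were lost when any LMNB1 or LMNB2 library was left out (adjusted p from 0.124 to 0.222). Both were also lost without LMNA replicate 1 (0.0641 for the precursor and 0.0547 for the 3p site) and with the replicate number as a block (0.0639 and 0.0558). The precursor call alone was lost with DESeq2's size factors (0.0558) or when LMNA replicate 2 or 3 was left out. Against LMNA both were lost when an LMNB2 library, LMNA replicate 1 or LMNA replicate 2 was left out (adjusted p from 0.0655 to 0.130). The 2 called of 15 compare with 2.01% of all features against LMNA (0.268% lower) and 2.19% against LMNB1 (0.366% lower). At an unadjusted p under 0.05 there were 4 of 15 against LMNA (16.4% of features) and 3 of 15 against LMNB1 (16.0%). Between LMNB1 and LMNA, 0 of 15 were called (0.0118%) and 0 of 15 had an unadjusted p under 0.05 (5.74%). The joint test of any difference among the 4 groups called the same pair of let-7e intervals (adjusted p = 0.0398 and 0.0439, beside 1.68% of features called), and those 2 of 15 alone had an unadjusted p under 0.05 (15.9% of features). Its adjusted p rose to between 0.0542 and 0.281 when an LMNB1 or LMNB2 library, LMNA replicate 1 or LMNA replicate 2 was left out. These comparisons share the LMNB2 libraries with the one against GFP.

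The other members had log2 fold changes for LMNB2 against LMNA with a median over all 15 of -0.79, and against LMNB1 of -0.75, beside microRNA medians of -0.58 and -0.55. Let-7c had -1.0 against LMNA (SE 0.44, adjusted p = 0.282) and -0.92 against LMNB1 (SE 0.44, adjusted p = 0.330). Let-7b had -0.95 against LMNA (SE 0.35, adjusted p = 0.200) and -0.80 against LMNB1 (SE 0.35, adjusted p = 0.278), and let-7a-3 had -0.03 and -0.53. These standard errors come from a fit in which all groups share 1 estimate of the spread, the widely spread GFP libraries included.

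When only the 6 libraries of a comparison were fitted, more members passed. Against LMNA 9 of 15 intervals were called, all lower in LMNB2, beside 5.28% of all features called lower and 10.5% in either direction. They were let-7a-2, let-7b, let-7c, let-7d 5p, both let-7e intervals, let-7f-1 and both let-7g intervals, with log2 fold changes of -1.20 for the let-7e precursor to -0.66 for let-7d 5p. Against LMNB1 11 of 15 were called, again all lower, beside 7.04% and 15.5%, while let-7a-3, both let-7d intervals and let-7i 3p were not. In the same kind of fit against GFP, 0 of 15 were called (0.0742% of features). Scaling to microRNA features alone called 0 of 15 against LMNA (3.70% of all features called, 0.204% lower) and 0 of 15 against LMNB1 (1.6%, 0.0177% lower). The member medians were then -0.18 and -0.25, with the median of all features at 0.55 and 0.48.

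**Figure D2:**
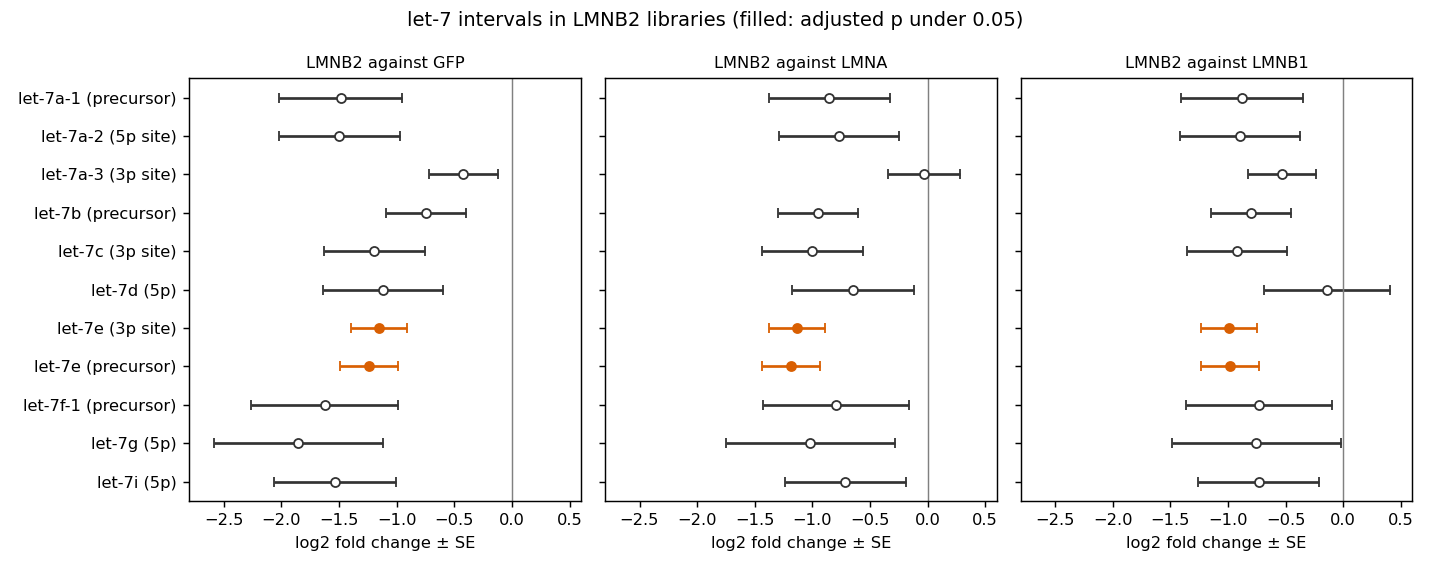
Log2 fold change with its standard error from the fit of all 12 libraries, for 1 interval per let-7 member and both let-7e intervals, in LMNB2 against GFP, LMNA and LMNB1; filled points have an adjusted p under 0.05. Only the let-7e intervals are filled in each panel (-1.24 and -1.15 against GFP), and all points lie below 0.

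The share of let-7 within the microRNA counts does not depend on scaling between libraries. The 8 member mature intervals cover 7 of the 10 members, since those of let-7a-1, let-7b and let-7f-1 stand under other spellings. Their counts made up 0.899%, 1.28% and 1.99% of all miRNA-interval counts with GFP, 1.39%, 1.51% and 1.24% with LMNA, 1.46%, 1.39% and 1.29% with LMNB1, and 0.949%, 0.947% and 0.836% with LMNB2. The LMNB2 values lay below all 6 LMNA and LMNB1 values, and GFP replicate 1 fell among them. The means were 1.39% ± 0.553 with GFP, 1.38% ± 0.135 with LMNA, 1.38% ± 0.0848 with LMNB1 and 0.911% ± 0.0647 with LMNB2 (SD, n = 3). Over all 12 libraries the groups did not differ beyond the spread between replicates (exact permutation test of the F statistic over 15400 groupings, p = 0.199, smallest possible 6.5e-05). Without GFP replicate 1 the exact permutation p was 0.0127, and without GFP replicate 3 it was 0.0193. Over the 9 lamin libraries alone, an alternative chosen after seeing the data, it was 0.0321, with 0.0036 the smallest possible. With all 16 mature intervals on the 10 hairpins, also chosen after seeing the data, the means were 2.10% ± 0.906 (GFP), 2.07% ± 0.211 (LMNA), 2.08% ± 0.150 (LMNB1) and 1.39% ± 0.109 (LMNB2) (SD, n = 3). The exact permutation p was 0.272 over 12 libraries and again 0.0321 over the 9 lamin libraries.

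**Figure D3:**
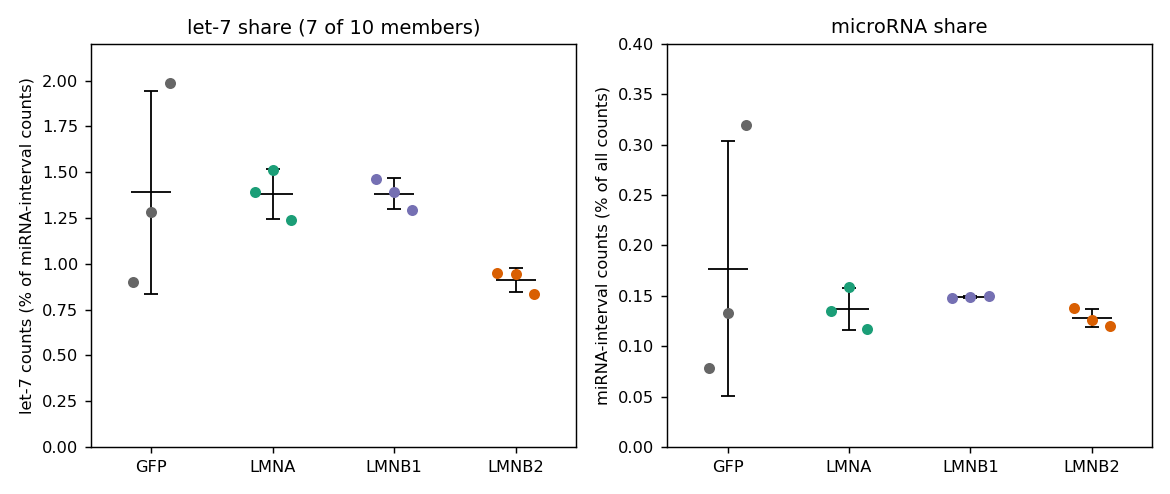
Left, counts on the 8 member mature intervals (7 of 10 members) as a percent of all miRNA-interval counts; right, miRNA-interval counts as a percent of all counts; points are the 12 small RNA libraries, bars the group mean and its SD (n = 3). On the left LMNB2 lies at 0.836% to 0.949%, below LMNA and LMNB1, while the GFP libraries spread from 0.899% to 1.99%; on the right GFP spreads from 0.0785% to 0.320%.

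Mature and precursor intervals moved together, as they share most of their reads. Summed over let-7d, let-7e, let-7g and let-7i, the members with both kinds of interval, the log2 ratio of mature to precursor counts was -0.003, 0.001 and -0.088 in GFP and -0.026, -0.007 and -0.098 in LMNA. It was -0.006, 0.007 and 0.012 with LMNB1 and -0.005, -0.008 and 0.006 with LMNB2. The groups did not differ beyond the spread between replicates (exact permutation test, p = 0.238). A precursor interval contains the mature site, so a ratio near 0 says that nearly all of its reads also count at the mature-site interval. Reads from uncut precursors were not separable, so this ratio and its test cannot show whether maturation differed between groups. The lower ratios of GFP replicate 3 and LMNA replicate 3 come from let-7e, where 166 of 1231 and 80 of 696 precursor-interval counts fell outside the 3p-site interval. In 9 of the other libraries that number was at most 3, and in LMNA replicate 1 it was 15.

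Arms could be compared where the table has an interval for each, under this or another spelling of the name. The 5p interval held 63.0 times the counts of the 3p interval for let-7a-1, 52.5 times for let-7g, 42.9 times for let-7b and 19.1 times for let-7i, over all libraries. The ratio was 7.8 for let-7f-1 and 4.6 for let-7d. The 5p arm was thus the main product of all 6, with let-7d the least one-sided. The let-7i 3p interval (chr12:62603722-62603793), with 5 to 22 counts per library, had a log2 fold change of -0.23 in LMNB2 against GFP (adjusted p = 0.783 by edgeR's quasi-likelihood test).

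Several members share a primary transcript with other microRNAs, and all listed partners are given, whatever their values. Let-7e lies beside miR-99b and miR-125a on chromosome 19. MIR99B had 24.9, 30.5 and 68.9 CPM with GFP, 44.5, 50.1 and 35.0 with LMNA, 35.4, 34.7 and 42.6 with LMNB1, and 35.4, 29.0 and 27.1 with LMNB2, with a log2 fold change of -0.44 in LMNB2 against GFP (adjusted p = 0.448). MIR125A had 8.14, 11.1 and 28.9 CPM with GFP, 17.3, 19.7 and 15.2 with LMNA, 14.5, 14.2 and 16.7 with LMNB1, and 12.6, 10.9 and 11.5 with LMNB2, with -0.46 (adjusted p = 0.484 by edgeR's quasi-likelihood test). Both partners overlapped between LMNB2 and GFP, unlike let-7e.

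The log2 ratio of let-7e to the summed partners, a measure added after seeing the data, was -3.44, -3.05 and -4.03 with GFP, -3.86, -3.53 and -3.80 with LMNA, -3.60, -3.51 and -3.84 with LMNB1, and -4.44, -4.33 and -4.19 with LMNB2. LMNB2 was below all 9 other libraries, and the lowest of those was GFP replicate 3. The means were -3.51 ± 0.49 with GFP, -3.73 ± 0.18 with LMNA, -3.65 ± 0.17 with LMNB1 and -4.32 ± 0.13 with LMNB2 (SD, n = 3). The exact permutation test gave p = 0.0347, and 0.00974 with the let-7e precursor interval. Since let-7e was looked at here because of its fold change, this is a description of the same libraries and not separate evidence. Leaving out 1 library gave p from 0.00136 to 0.118, above 0.05 in 7 of 12 cases.

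**Figure D4:**
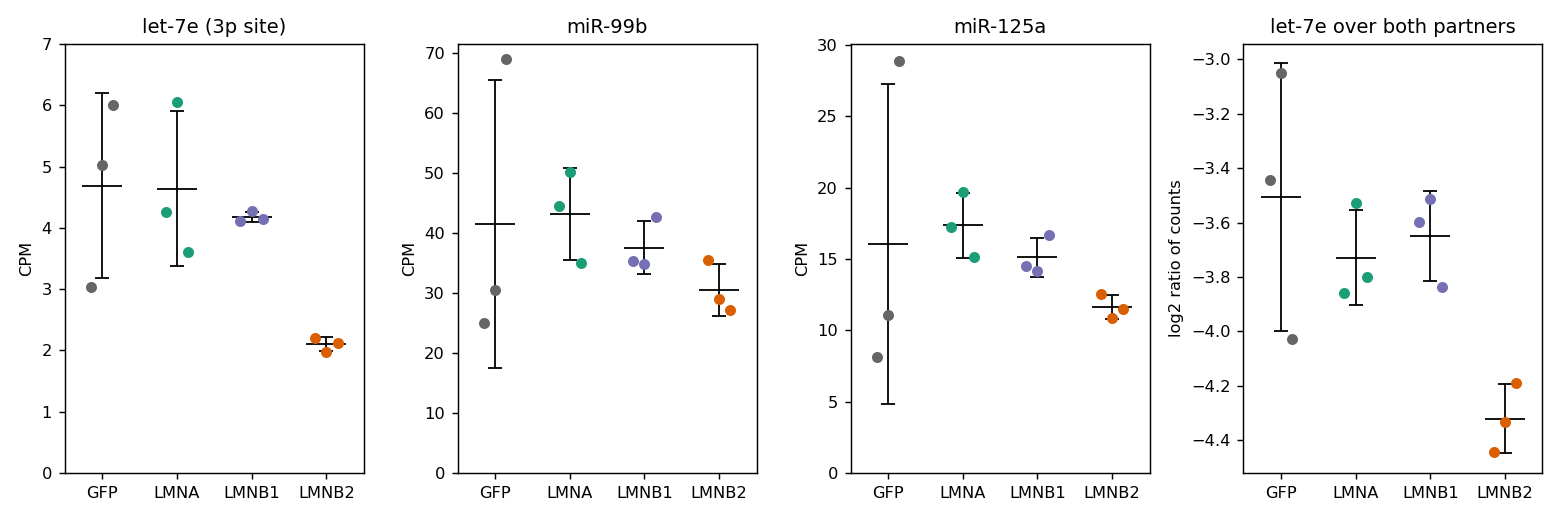
CPM of the let-7e 3p-site interval, miR-99b and miR-125a, and the log2 ratio of let-7e counts to the sum of both partners, in the 12 small RNA libraries (points; bars are the group mean and SD, n = 3). The LMNB2 libraries are apart from the rest for let-7e (1.98 to 2.21 CPM) and for the ratio (-4.44 to -4.19), and overlap GFP for both partners.

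Of the 17 genes listed around the family, 0 were called in any small RNA comparison (2.66% of all features were called in LMNB2 against GFP). MIRLET7IHG has 0 intervals in the small RNA data and could not be tested. MIR100 and MIR125B1, partners of let-7a-2, had log2 fold changes of -1.18 and -0.60 in LMNB2 against GFP, with 18.1 and 73.9 mean counts. MIR99A and MIR125B2, partners of let-7c, had -0.71 and -0.96, and MIR4763, near let-7b, was too low to test. The family members outside the list of 10, MIRLET7F2 and MIR98 on chromosome X, had log2 fold changes of -1.48 (adjusted p = 0.170) and -1.47 (adjusted p = 0.0535 by edgeR's quasi-likelihood test). MIR98, with 0.137, 0.265 and 0.530 CPM in GFP and 0.108, 0.102 and 0.114 in LMNB2, lay below all 9 other libraries in LMNB2. The let-7f 5p sequence of MIRLET7F2 is the same as that of MIRLET7F1, and the counts of both precursor intervals were close, with means of 263 and 231 per library. LIN28B-AS1, antisense to the let-7 inhibitor LIN28B, had -0.18, and H19, a lncRNA reported to bind let-7, was too low to test.

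Long non-coding RNAs that host let-7 hairpins have intervals that contain the microRNA counts. Counts at the let-7a-1, let-7f-1 and let-7d intervals made up 93.8% to 99.2% of the counts on the MIRLET7A1HG interval around them. For MIR100HG, the let-7a-2, MIR100 and MIR125B1 intervals made up 96.4% to 99.1%, and for MIR99AHG, the let-7c, MIR99A and MIR125B2 intervals made up 90.3% to 97.3%. The log2 fold changes of MIRLET7A1HG (-1.43) and MIR100HG (-1.39) in LMNB2 against GFP are therefore no measure of the host transcript. MIRLET7DHG is annotated on the opposite strand to let-7d, and the let-7d interval still made up 56.9% to 95.1% of its counts, so reads of the pair cannot be told apart without knowing how strand was used.

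MIRLET7BHG was different. The let-7a-3 and let-7b intervals inside it made up only 20.1% to 39.9% of its counts. The remainder was 344, 841 and 3131 counts with GFP, 746, 1098 and 793 with LMNA, 1020, 877 and 894 with LMNB1, and 501, 539 and 371 with LMNB2. At the let-7a-1 precursor the counts were 336, 780 and 3049 with GFP, 742, 1126 and 722 with LMNA, 1014, 898 and 913 with LMNB1, and 548, 495 and 382 with LMNB2. The remainder takes in the 5p site of let-7a-3, which no member interval covers, and it matched let-7a-1 closely in each library. The 21 to 76 counts of the let-7a-3 interval thus leave out that site.

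Of 130 other microRNA intervals with a mean of at least 100 counts, the 5 whose log2 CPM ran most like the mean of the let-7 members across the 12 libraries were MIR106B (Pearson r = 0.979), MIR30A (0.977), MIR222 (0.977), MIR128-2 (0.975) and MIR148B (0.974). The median over the 130 was 0.882, so most abundant microRNAs followed the same course, and all points share the libraries and their scaling. MIR106B, for example, had 215, 334 and 1850 counts in GFP, the same climb between these 3 libraries as let-7. MIR222 had a log2 fold change of -1.28 in LMNB2 against GFP (adjusted p = 0.0644 by edgeR's quasi-likelihood test).

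No let-7 window differed in chromatin accessibility beyond the adjusted test. An ATAC window covers an interval and 125 bp on each side, and 12 of the 15 member windows held enough counts to test, those of let-7f-1 and let-7g falling out. By edgeR's quasi-likelihood test 0 of 12 were called for LMNA (0.000611% of 163786 windows), LMNB1 (0.00305%), LMNB2 (0.00244%) or in the joint test (0.0421%). Between lamins 0 of 12 were called for LMNB1 against LMNA (0.223%), LMNB2 against LMNA (0.00305%) and LMNB2 against LMNB1 (0.00305%), with 0 of 12 at an unadjusted p under 0.05 in each pair (5.37%, 7.17% and 4.98%). At an unadjusted p under 0.05 there were 2 of 12 for each lamin against GFP and in the joint test (5.19%, 4.78%, 5.72% and 5.81% of windows), both of them windows on let-7d. These 2 windows overlap and share most of their counts, so they are not separate observations, and the 4 tests share the GFP libraries. DESeq2 called 0 of 12 in the same 4 tests (0.0366%, 0.0379%, 0.0708% and 0.423%). The median log2 fold changes of the 12 were -0.19, 0.07 and -0.17 for LMNA, LMNB1 and LMNB2 against GFP.

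Let-7i lay in the most open chromatin of the family. Its window averaged 909 ATAC counts per kb over the 12 libraries, against 96.0 at let-7b, 93.2 at let-7a-3, 45.1 at let-7e, 38.4 at let-7a-1, 36.0 at let-7a-2, 34.2 at let-7d, 21.5 at let-7c, 16.5 at let-7g and 11.2 at let-7f-1. Its 500 bp upstream flank, which starts 350 bp outside the window, was higher still at 1720 counts per kb, while the downstream flank of the same length had 23.3. That upstream flank overlaps the start of the host gene MIRLET7IHG, whose RefSeq promoter (chr12:62602493-62602792, plus strand, GRCh38.p14) is shown with the 107 bases inside the flank in capitals.
MIRLET7IHG promoter: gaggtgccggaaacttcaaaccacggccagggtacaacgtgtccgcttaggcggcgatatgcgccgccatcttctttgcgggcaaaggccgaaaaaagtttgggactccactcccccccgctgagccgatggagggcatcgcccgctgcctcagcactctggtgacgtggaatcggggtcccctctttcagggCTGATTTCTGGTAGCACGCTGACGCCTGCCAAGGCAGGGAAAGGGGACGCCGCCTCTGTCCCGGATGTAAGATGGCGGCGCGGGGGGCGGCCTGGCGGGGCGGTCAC
It holds 27 CG dinucleotides, where the median over 35116 RefSeq promoters of this length is 14 and 28.2% hold as many, and its GC content is 65.0% against a median of 58.7%. The let-7i precursor window had 1.88, 1.85 and 1.31 CPM with GFP, 1.61, 1.54 and 1.31 with LMNA, 1.43, 1.40 and 1.51 with LMNB1, and 1.34, 1.49 and 1.56 with LMNB2. The groups overlapped, and the log2 fold changes were -0.18, -0.21 and -0.19 for LMNA, LMNB1 and LMNB2 (adjusted p of 0.984, 0.978 and 0.911 by edgeR's quasi-likelihood test).

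At let-7e, whose small RNA counts were lower in LMNB2, the precursor window had 0.107, 0.082 and 0.057 CPM with GFP, 0.080, 0.068 and 0.081 with LMNA, 0.094, 0.067 and 0.083 with LMNB1, and 0.068, 0.042 and 0.060 with LMNB2. LMNB2 overlapped GFP, with a log2 fold change of -0.47 against GFP (adjusted p = 0.923 by edgeR's quasi-likelihood test) from 11 to 24 counts per library. Its 5 kb upstream flank was more open than the window, at 520 counts per kb, and for let-7a-3 and let-7b the 5 kb downstream flanks (278 and 272 counts per kb) exceeded the windows. On the other side, the 5 kb downstream flank of let-7e held 25.7 counts per kb, less than its window. The 5 kb upstream flanks of let-7a-3 and let-7b (117 and 120 counts per kb) also exceeded their windows. At 500 bp, the upstream flank of let-7b held 81.7, less than its window, and that of let-7a-3 held 164, more than its window.

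The let-7d window is described because of its values, so it was chosen after they were seen. Its precursor window had 0.019, 0.018 and 0.026 CPM with GFP, 0.075, 0.057 and 0.039 with LMNA, 0.082, 0.047 and 0.094 with LMNB1, and 0.054, 0.087 and 0.048 with LMNB2. All 9 lamin libraries were above the 3 GFP libraries, and how often all windows show this order was not counted. The log2 fold changes were 1.13 for LMNA, 1.49 for LMNB1 and 1.28 for LMNB2, with adjusted p of 0.942, 0.978 and 0.860 by edgeR's quasi-likelihood test, so none passed. The counts behind them were 3, 3 and 5 in GFP and 10 to 25 in the lamin libraries, and the 3 comparisons share the same GFP libraries. The small RNA counts of let-7d did not rise with it, with log2 fold changes of -0.47, -0.98 and -1.12 for the 5p interval.

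Summed over the member loci, the density in windows relative to their 5 kb flanks had a log2 ratio of 0.687, 0.715 and 0.502 with GFP, 0.672, 0.470 and 0.267 with LMNA, 0.522, 0.426 and 0.643 with LMNB1, and 0.418, 0.549 and 0.538 with LMNB2. All 4 groups overlapped, and the exact permutation test gave p = 0.501. The let-7i window holds most of the window counts in that sum, and the flanks of let-7a-1, let-7f-1 and let-7d, and those of let-7a-3 and let-7b, overlap each other.

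**Figure D5:**
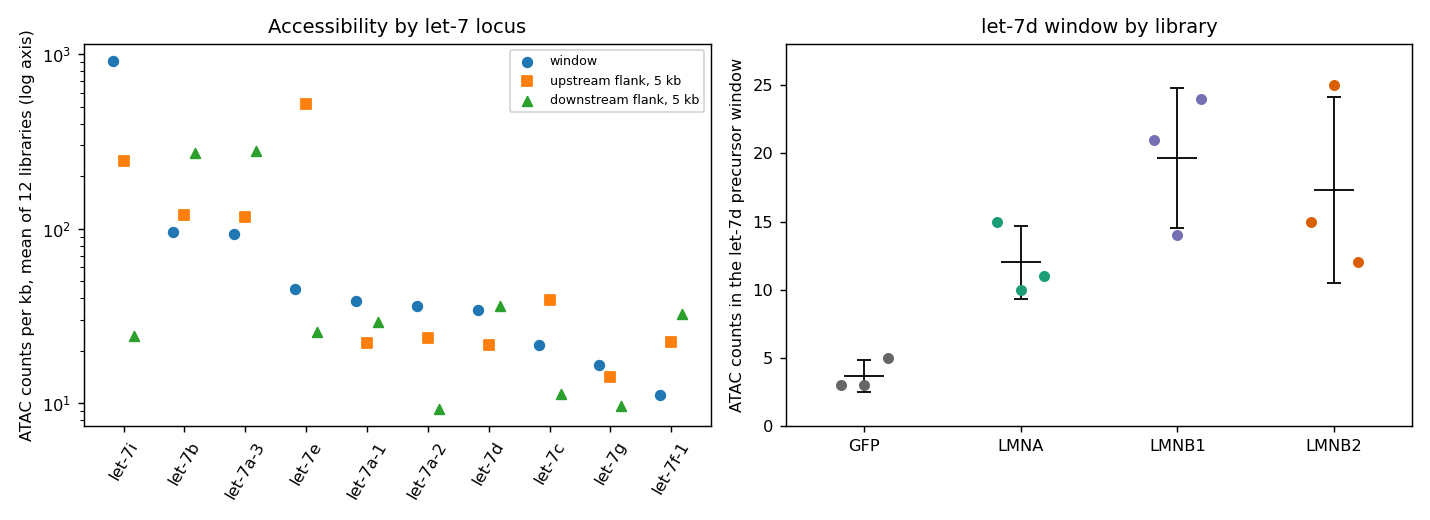
Left, mean ATAC counts per kb over 12 libraries (log axis) in the window and the 5 kb flanks of each let-7 locus; right, ATAC counts in the let-7d precursor window by library, with group mean and SD (n = 3). The let-7i window stands at 909 counts per kb, above all other windows, and the let-7d window holds 3 to 5 counts in GFP and 10 to 25 in the lamin libraries, a difference that did not pass the adjusted test.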

How the data were processed

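Small RNA and ATAC-seq libraries were compared in 4 groups of 3, taken from the sample titles; each assay has 1 labelled batch. The files that the authors deposited hold raw counts per annotated interval (small RNA) and per window and flank (ATAC), whole numbers per the values, and 0 columns were left unmapped. The genome build, GRCh38, is per the submitters' processing notes. Aligner, counter, strand, multi-mapping and duplicate handling and any ATAC shift are not given in the sources used here. Coordinates fit 0-based starts: 2282 of 5148 microRNA intervals equal a RefSeq site plus 25 bp per side.

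All 12 libraries of an assay were fitted in edgeR 4.0.16 (R 4.3.3): filterByExpr, TMM, robust quasi-likelihood test, Benjamini-Hochberg adjustment over 33893 features or 163786 windows, calls at an adjusted p under 0.05, fold changes with a prior count of 2. The procedure was tested on simulated data with the same spread in every group, which do not cover the uneven GFP libraries. Shares and ratios within libraries used exact permutation of the F statistic (two-sided by nature). Depth per feature limits precision; duplicates cannot be removed. Members, lists and the rule for named genes (called intervals, then each member's mature and precursor intervals, the listed partners and markers) were chosen with earlier results of these data known. Alternatives were other scalings and filters, DESeq2 1.42.0, fits of only the groups in a comparison, a block for the replicate number and leaving out each library. Comparisons between lamins, the share without GFP or over all 10 members, the 6-member arm ratio and the let-7e cluster ratio were added after seeing the data.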

Additional observations from a re-analysis of the deposited data

How the results depend on the processing

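No called result reversed under any alternative run. For LMNB2 against GFP, 2 of 15 let-7 intervals were called; the count was 2 with DESeq2's size factors, 9 with the DESeq2 test, 0 with total counts, 0 with scaling to microRNA features, 0 with microRNA features only, 4 without a count filter, 0 in a fit of 6 libraries, and 0 to 9 leaving out 1 library. For LMNB2 against LMNA it was 0 with total counts or either microRNA restriction, 9 in the fit of 6 libraries, and 0 to 7 leaving out 1. For LMNB2 against LMNB1 it was 1 with DESeq2's size factors or a mean of at least 10 counts, 0 with total counts or either microRNA restriction, 11 in the fit of 6 libraries, and 0 to 7 leaving out 1. The joint test gave 1 with DESeq2's size factors, 0 with a mean of at least 10 counts, total counts or either microRNA restriction, and 0 to 7 leaving out 1. Every LMNB2 library left out gave 0 in all 4. The replicate block left 2 against GFP and against LMNA, and 0 against LMNB1 and in the joint test; not every library correlated best with its own number (same-number r from -0.076 to 0.234), so the numbers were not taken to pair the samples. LMNA, LMNB1, LMNB1 against LMNA and all ATAC tests gave 0 under each alternative. The exact permutation p of the let-7 share (0.199) was 0.0321 without the 3 GFP libraries (the same over all 10 members) and 0.0127 to 0.441 leaving out 1. That of the let-7e cluster ratio (0.0347) was 0.0668 over MIR125A alone and 0.00136 to 0.118 leaving out 1. Total counts moved the median of all features in LMNB2 against GFP to 0.19. The cause of these differences was not tested. Among 11 named intervals, the sign differed under at least 1 alternative at 11 for LMNA, 11 for LMNB1 and 2 for LMNB2 against GFP.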
